A study of Mus musculus with 12 samples.

Results

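The copy number of 10 axon guidance genes was examined in DNA of a pair of primary mouse pancreatic ductal adenocarcinoma (PDAC) lines. The genes were the ligands Slit1, Slit2 and Slit3, their receptors Robo1, Robo2, Robo3 and Robo4, the secreted semaphorins Sema3a and Sema3e, and the semaphorin receptor Plxna1. They were found by name among 22035 gene names in the copy-number tables, by a rule that used no measured value. The choice of the genes was made with earlier results of these data known. All 10 were found in both lines.

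The lines, 15376T and 14837T, came from engineered C57BL/6 mice, and whole-exome sequencing (WES) gave 1 library per line. Each library (WES-15376T, WES-14837T) is called by its line in the text. Both lines carry the reverse transactivator with GFP at the Rosa26 locus behind a stop cassette that Cre removes (ROSA_rtTA), p48-Cre, which is active in the pancreatic lineage, and a conditional Trp53 allele over wild type (Trp53 L/+). The labels give the genotype of both libraries as WT, and both lines were grown with doxycycline. Each line is a single culture, so a difference between the lines is a difference between 2 cultures and has no replicate. A cell type label cannot be checked against markers in DNA. The RNA of the lines and DNA of a wild-type tail were not analysed here.

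Slits are secreted proteins that bind Robo receptors and repel growing axons and migrating cells. Class 3 semaphorins are secreted as well and act through plexins, mostly together with neuropilins, to collapse the growth cone. Both systems were found in the nervous system and also steer endothelial, epithelial and tumor cells, and the axon guidance genes, SLIT2, ROBO1 and ROBO2 among them, are known as a group of recurrently altered genes in human pancreatic cancer.

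The tables gave each segment, a run of neighboring genomic bins with common coverage, its mean read depth, the log2 of coverage over a reference, a whole-number copy number and a B-allele fraction (BAF), which is the share of reads at variant sites that carry the other allele than the reference genome. A gene took the values of the segment that lists it. On the log2 scale 0 stands for 2 copies, and segments under -0.25 were called lost and those over 0.2 gained. There were 191 segments in 15376T and 235 in 14837T. The mean depth over autosomal segments was 43.4 and 47.5, respectively. The tables do not give the spread between bins, and the SD of log2 among autosomal segments at 2 copies, 0.090 in 15376T and 0.095 in 14837T, served as the spread.

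Robo1 and Robo2, the receptors through which Slits repel most axons, were called lost in both lines. Slit1 was called gained in 14837T and was at 2 copies in 15376T. The other 7 genes, Slit2, Slit3, Robo3, Robo4, Sema3a, Sema3e and Plxna1, were at 2 copies in either line. Losses were common in these genomes. Of 20947 autosomal genes that lay in 1 segment of each line, 30.1% were called lost in 15376T and 28.8% in 14837T, against 2 of the 10 guidance genes in each. A gain was called for 9.09% of all genes in 15376T and for 21.4% in 14837T, against 0 and 1 of the 10. Loss in both lines covered 22.4% of all genes and 2 of the 10. The call differed between the lines for 29.3% of all genes and for 1 of the 10, and 41.4% of all genes and 7 of the 10 were at 2 copies in both. The median segment log2 of the 10 genes was -0.032 in 15376T and -0.033 in 14837T, beside -0.023 and -0.045 over all genes.

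**Figure D1:**
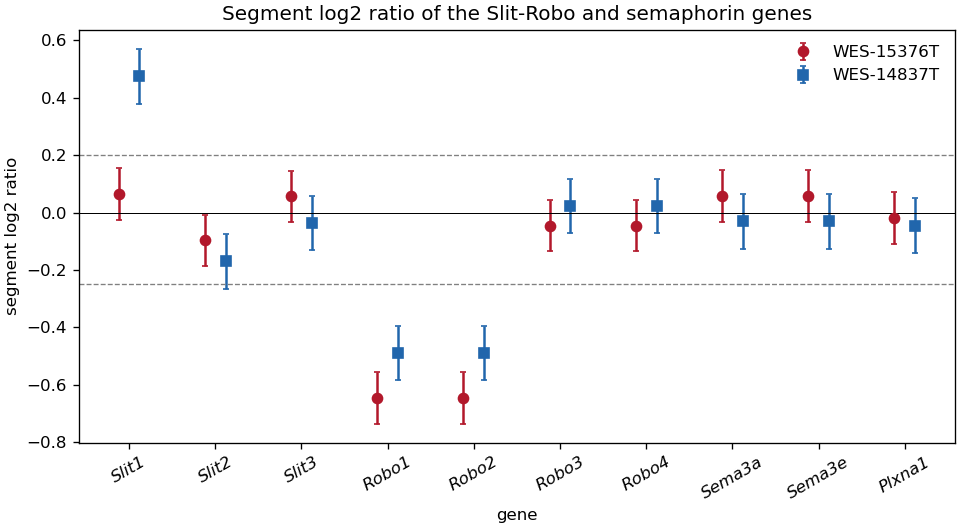
Segment log2 ratio of each gene in WES-15376T and WES-14837T, 1 point per line, with error bars of 1 SD of log2 among autosomal segments at 2 copies and dashed lines at the log2 where losses and gains were called. Robo1 and Robo2 sit below the loss line in both lines, at -0.65 and -0.49, and Slit1 sits above the gain line in WES-14837T alone, at 0.48.

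The genes were not 10 independent measurements. They lay in 7 segments in each line, because Robo1 and Robo2, Robo3 and Robo4, and Sema3a and Sema3e are neighbors on their chromosomes. Robo1 ends 844 kb before Robo2, Sema3a ends 422 kb before Sema3e, and Robo4 and Robo3 lie 2.02 kb apart. What most of the genes shared was their size. Of the 10 genes, 9 were longer than the median protein-coding gene of 17.1 kb in the RefSeq annotation, and 7 were longer than 90% of the 21900 protein-coding genes. Robo2 spanned 1555 kb, more than 99.9% of them, and Robo1 1020 kb. Robo4 was the shortest with 12.1 kb.

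Only part of Robo1 and of Robo2 was covered by bins. The deposited bins of Robo1 began close to the start site of a shorter transcript, at position 72663149 of chromosome 16, and the bins of Robo2 ended close to a similar internal start site at position 74411825. The 250 bases before these start sites are printed as the point from which the measured part of each gene extends. The outermost Robo2 start site is printed beside them, since no Robo2 bin lay within 1036 kb of it. The sequences are those of RefSeq on GRCm38.p6, 5′ to 3′ on the strand of the gene, with CG pairs in capitals.
Robo1, chr16:72662899-72663148, plus strand: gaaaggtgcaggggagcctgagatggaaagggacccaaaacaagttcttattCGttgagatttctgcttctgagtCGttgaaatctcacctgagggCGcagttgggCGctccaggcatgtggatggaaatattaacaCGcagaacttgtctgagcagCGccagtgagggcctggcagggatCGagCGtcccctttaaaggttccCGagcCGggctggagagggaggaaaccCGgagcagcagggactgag
Robo2 internal, chr16:74411826-74412075, minus strand: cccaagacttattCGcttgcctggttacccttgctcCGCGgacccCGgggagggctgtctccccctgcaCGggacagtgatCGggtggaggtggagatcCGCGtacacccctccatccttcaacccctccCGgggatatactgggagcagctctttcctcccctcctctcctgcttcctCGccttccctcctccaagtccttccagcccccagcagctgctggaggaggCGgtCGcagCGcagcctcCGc
Robo2 outermost, chr16:75447294-75447543, minus strand: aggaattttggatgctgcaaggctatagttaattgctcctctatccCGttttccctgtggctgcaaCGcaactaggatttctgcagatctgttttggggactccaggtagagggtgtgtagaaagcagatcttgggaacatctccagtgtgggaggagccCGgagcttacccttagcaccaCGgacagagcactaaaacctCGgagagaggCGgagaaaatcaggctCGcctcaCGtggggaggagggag
The Robo1 window held 11 CG pairs and the internal Robo2 window 14, against a median of 6 over 32851 windows of the same length. The outermost Robo2 window held 8. The share of windows with fewer CG pairs was 64.4% for Robo1, 70.6% for the internal and 57.0% for the outermost Robo2 window. The nearest bin lay 0.851 kb from the Robo1 start site and 0.884 kb from the internal Robo2 start site.

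Slit2 and Slit3 each hold a copy of the microRNA gene for miR-218 in an intron, and Robo2 overlaps the gene of miR-691, so that a change in the copy number of the host segment would include them. The mature sequences from RefSeq on GRCm38.p6 are printed to show what the Slit2 and Slit3 loci share, with the seed (bases 2 to 8) in capitals.
miR-218-5p, from Mir218-1 in Slit2 and from Mir218-2 in Slit3: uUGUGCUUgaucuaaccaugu
miR-218-1-3p, Slit2: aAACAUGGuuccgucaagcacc
miR-218-2-3p, Slit3: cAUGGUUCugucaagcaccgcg
miR-691, Robo2: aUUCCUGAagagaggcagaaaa
The 5p arm was the same in all 21 bases from either locus, at chr5:48223966-48223986 and chr11:35616840-35616860, both on the plus strand. The 3p arms had different seeds. The miR-691 gene lay at chr16:74341990-74342067 on the minus strand. Mir218-1 and Mir691 were named in the same segments as their hosts in both lines.

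Among the ligands, Slit1 differed most between the lines. Slit1 is one of the neural Slits and lies at chr19:41597824-41747275 on GRCm38. Its segment log2 was 0.065 in 15376T, with 2 copies, and 0.48 in 14837T, with 3 copies. The difference of -0.41 (15376T minus 14837T) was larger than the combined spread of 0.13, and 87.1% of all genes had a smaller absolute difference. It was the only one of the 10 genes whose call differed. The segment around Slit1 covered 11.2 Mb and 1841 bins in 15376T and 12.2 Mb and 2022 bins in 14837T. In 14837T the gain went on toward the start of the chromosome at a log2 of 0.36 over 24.9 Mb, and toward its end the next segment, 6.46 Mb from the gene, was at 0.058. In 15376T the flanking segments were at -0.030 and -0.071, both at 2 copies. The BAF was 0.079 and 0.067 in the 2 lines, near the median over autosomes of 0.077 and 0.061.

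The reads on Slit1 itself were fewer than those of its segment. Slit1 was listed in the gene table of 14837T, with a depth of 55.4 over 35 bins that spanned 86.2% of the gene. The depth of its segment was 71.1, and that of segments at 2 copies 47.5. Relative to 2-copy segments the own depth of Slit1 was 0.22 on the log2 scale, and relative to its segment it was -0.36. Of 134 genes of the segment with at least 5 bins, 22 (16.4%) had a lower depth. No reference depth per gene is part of the tables, so capture efficiency and copy number of a single gene cannot be told apart.

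Slit2 was the lowest of the genes that were not called lost in both lines. Slit2, the best studied Slit, lies at chr5:47981291-48307735. Its segment log2 was -0.097 in 15376T and -0.17 in 14837T, and the difference of 0.073 was within the spread. The log2 in 14837T was more than 1 SD below 0, above the threshold of -0.25 for a loss. The Sema3a and Sema3e segment lay just before it on the chromosome. The border between them fell in Htt, the gene of huntingtin, in both lines, and its position differed by 17985 bases. At that border log2 stepped down by a like amount toward Slit2, with a step of -0.15 in 15376T and -0.14 in 14837T. The border was 13.1 Mb from Slit2. Toward the end of the chromosome the Slit2 segment stopped at a different place in each line, 4.50 Mb from the gene within Zcchc4 in 15376T, beyond which log2 was 0.049 and the BAF 0.35. In 14837T the segment was longer, with 29.3 Mb against 17.9 Mb.

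The read depth put the Slit2 segment lower than the deposited log2 did. The mean depth was 39.1 in 15376T and 38.4 in 14837T. Relative to segments at 2 copies this was -0.23 and -0.31 on the log2 scale, and the deposited log2 was -0.097 and -0.17. The deposited log2 is set against a reference, which the depth is not. The lines may share that reference, and its part in the common Htt border was not tested.

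Slit3 had an even copy number but a BAF that differed between the lines. Slit3 lies at chr11:35121456-35708507. Its segment log2 was 0.056 in 15376T and -0.036 in 14837T, a difference of 0.092 that was within the spread. The BAF of its segment was 1.00 in 15376T and 0.027 in 14837T. A segment with a BAF over 0.5 was uncommon, since such segments made up 6.74% of the autosomal length with a BAF in 15376T and 2.37% in 14837T. The segment covered 96.5 Mb and 11932 bins in 15376T and 68.0 Mb and 7123 bins in 14837T. The number of variant sites behind a BAF is not part of the tables, so a BAF of 1.00 could rest on a few sites.

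**Figure D2:**
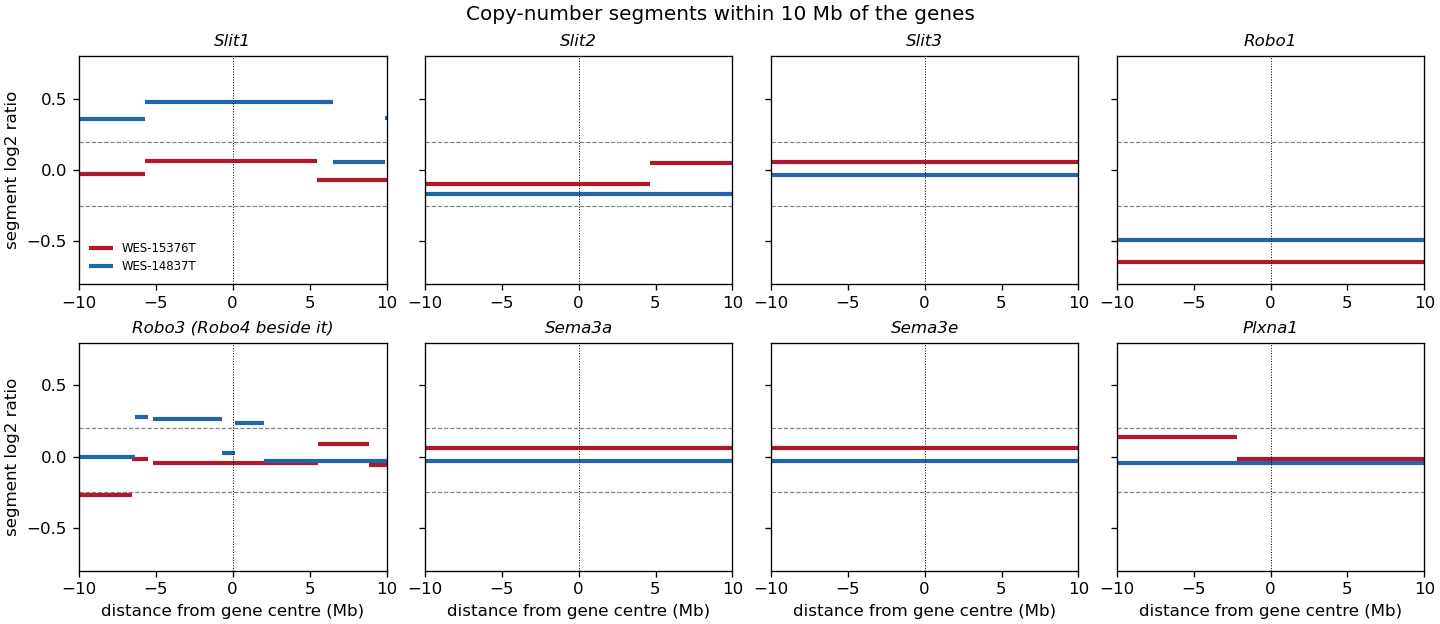
Segment log2 ratio against the distance from the middle of the gene in Mb, with a bar for each segment, a color for each library and dashed lines at the log2 where losses and gains were called. Robo2 and Robo4 lie beside Robo1 and Robo3 and have no panel. The Slit1 panel shows the gain in WES-14837T on either side of the gene, the Robo1 panel a loss in both lines, and the Robo3 panel a short segment at 2 copies between gained ones in WES-14837T.

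The receptors fell into a lost pair and a pair at 2 copies. Robo1 lies at chr16:72027518-73047491 and Robo2 at chr16:73891976-75447443, and both were in a segment of 73.5 Mb with the same borders in the 2 lines. Only 7 autosomal segments, of 183 in 15376T and 224 in 14837T, shared both borders. No segment followed the Robo segment, so its far border was the end of the covered chromosome. The log2 of this segment was -0.65 in 15376T over 4416 bins and -0.49 in 14837T over 4418 bins, with 1 copy called in each. The difference of -0.16 was slightly above the combined spread of 0.13, and 54.1% of all genes had a smaller absolute difference. The segment before it on chromosome 16 also had the same borders in the 2 lines and was lost as well, at -0.54 and -0.40 over 20.7 Mb. The loss was thus not limited to the Robo genes. In both lines the 2 lost segments together reached from position 3592388 to 98082498. The BAF was 0.086 and 0.055.

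The reads on Robo1 and Robo2 themselves were few. The own depth of Robo1 was 24.5 in 15376T and 28.6 in 14837T, over 34 bins in each line. That of Robo2 was 23.1 and 24.1 over 39 bins. Each of these depths was below the segment, which had 29.1 in 15376T and 34.1 in 14837T, and below the segments at 2 copies, which had 46.0 and 47.5. On the log2 scale against 2-copy segments, the own depth of Robo1 was -0.91 and -0.73, and that of Robo2 was -0.99 and -0.98. The Robo1 bins covered a stretch of 380 kb, or 37.3% of the gene, and the Robo2 bins a stretch of 515 kb, or 33.1%, each starting at the internal start sites shown with their sequences. The remaining part of each gene was read only through the segment. The bin at Mir691, inside Robo2, had a depth of 61.1 in 15376T and 51.0 in 14837T.

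Robo1 and Robo2 were low among the genes of their own segment, but not the lowest. Of 259 genes there with at least 5 bins in both lines, 37 had a lower depth than Robo1 in 15376T and 35 in 14837T. For Robo2 these numbers were 30 and 17. The median depth of the 259 genes was 34.7 and 40.4. Genes whose bins stretched over a long distance had less depth, with a Spearman rho between bin span and depth of -0.42 in 15376T and -0.49 in 14837T over the 259 genes. This is across genes of the same library, which are not independent replicates. All 13 genes with a bin span of at least 300 kb were below the median depth in either line. Robo1 and Robo2 are themselves among these 13, and their low depth was a feature they had in common with the others.

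Other guidance genes of the segment were also low. Epha6, an Eph receptor, had a depth of 16.3 in 15376T and 17.7 in 14837T. Dscam, an adhesion molecule that serves as a netrin receptor, had 17.4 and 20.8. Epha3 had 20.6 and 21.0, and Sema5b, a transmembrane semaphorin, had 23.1 and 25.9. All 6 guidance genes listed there, Robo1 and Robo2 included, had a depth below the median of the segment.

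The own depths of Robo1 and Robo2 were also compared between the lines. The log2 ratio of own depths (15376T over 14837T, each relative to 2-copy segments) was -0.18 for Robo1 and -0.013 for Robo2, beside -0.16 for the log2 of the segment. The deviation from the segment was -0.021 for Robo1 and 0.14 for Robo2. This deviation had a mean of -0.046 and an SD of 0.15 over the 1997 genes with at least 5 bins in both gene tables.

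**Figure D3:**
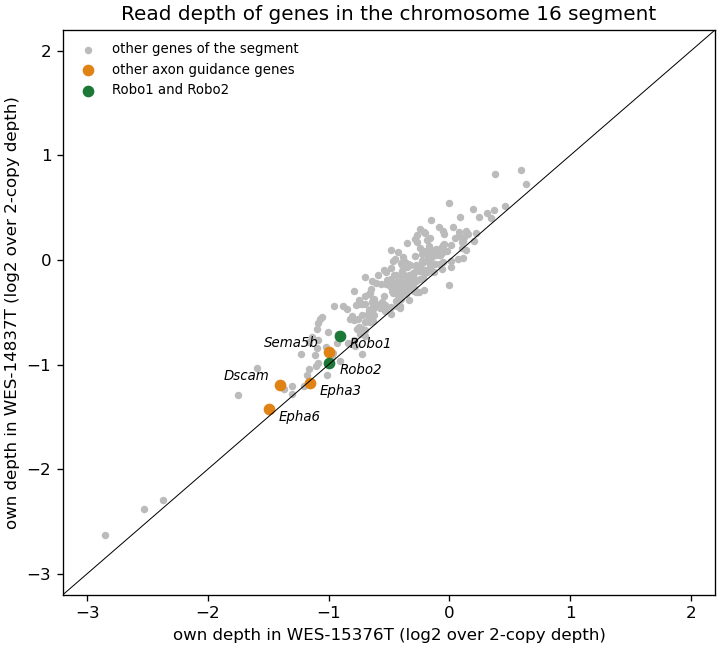
Own read depth of the 259 genes of the chromosome 16 segment, as log2 over the depth of segments at 2 copies, in WES-14837T (vertical axis) against WES-15376T (horizontal axis), with the line of equal values. Robo1 and Robo2 and the other guidance genes lie in the lower part of the cloud, with Robo2 at -0.99 and -0.98 on the line of equal values.

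Robo3 and Robo4 kept 2 copies in both lines, but in 14837T gained DNA lay on either side of them. Robo3, which lowers the response of commissural axons to Slits before they cross the midline, lies at chr9:37416045-37433436. Robo4, the endothelial Robo, lies at chr9:37401902-37414023. Their segment log2 was -0.046 in 15376T and 0.022 in 14837T, and the difference of -0.068 was within the spread. In 15376T the segment covered 10.7 Mb. In 14837T it covered 0.847 Mb with 180 bins and named 16 genes, the shortest segment that held any of the 10 genes. It lay between a segment at 0.26 and one at 0.24, both called at 3 copies. The lower border fell between Acrv1 and Chek1, 0.703 Mb from Robo4, and the upper border fell in Nrgn, 0.113 Mb from Robo3. The steps of -0.24 and -0.22 were each more than 1 SD of log2 at 2 copies. Both flanking gains were near the threshold of 0.2. By read depth relative to 2-copy segments, the segment of Robo3 and Robo4 in 14837T was at 0.13, higher than its deposited log2. The depth of the flanking segments was not set beside it.

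The semaphorins had 2 copies in both lines. Sema3a, the classic growth cone collapsing factor, lies at chr5:13124822-13603485, and Sema3e, which binds plexin D1 without a neuropilin, lies at chr5:14025276-14256689. They shared a segment of 31.5 Mb with log2 0.058 in 15376T over 2954 bins and -0.030 in 14837T over 2949 bins. The difference of 0.088 was within the spread. The BAF was 0.039 and 0.050, and the depth was 50.9 and 50.3. Sema3c and Sema3d were in the same segment and so had the same values.

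Plxna1, a plexin that transmits class 3 semaphorin signals with neuropilins, had an even copy number and the second highest BAF of the 10 genes in 15376T. It lies at chr6:89316313-89362613. Its segment log2 was -0.018 in 15376T and -0.045 in 14837T, the smallest absolute difference of the 10 genes, with 0.027. The BAF was 0.78 in 15376T and 0.40 in 14837T, against autosomal medians of 0.077 and 0.061. In 15376T the segment covered 25.8 Mb and began in Antxr1, 2.16 Mb from Plxna1. Beyond that border the BAF was 0.098 and the log2 was 0.14. Past the other border, 23.6 Mb from the gene, the BAF was 1.00 and the log2 0.18, so the high BAF was not limited to the Plxna1 segment. The number of variant sites is not given for these segments either. In 14837T the segment covered 127 Mb of chromosome 6.

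**Figure D4:**
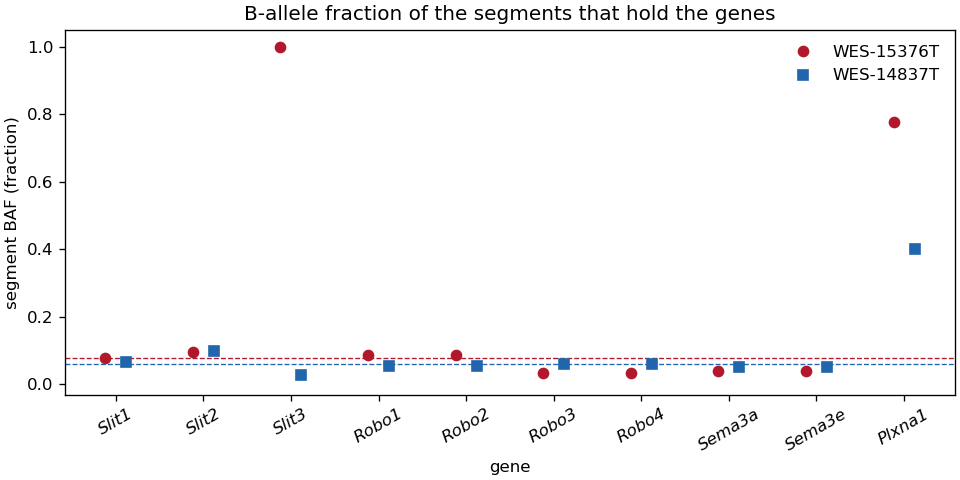
Segment BAF, a fraction from 0 to 1, of each gene in WES-15376T and WES-14837T, 1 point per line, with dashed lines at the autosomal medians of 0.077 and 0.061. Slit3 at 1.00 and Plxna1 at 0.78 in WES-15376T, and Plxna1 at 0.40 in WES-14837T, stand above the other values, which lie between 0.027 and 0.099.

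In the order of segment log2, Robo1 and Robo2 were lowest in both lines. In 15376T they were followed by Slit2, then Robo3 and Robo4, Plxna1, Slit3, Sema3a and Sema3e, and Slit1, and neighbors in this order of the 8 genes at 2 copies differed by less than the SD of 0.090. In 14837T the order was Robo1 and Robo2, Slit2, Plxna1, Slit3, Sema3a and Sema3e, Robo3 and Robo4, and Slit1. There the gap from Slit2 to Plxna1 was larger than the SD of 0.095, and the gaps among Plxna1, Slit3, Sema3a with Sema3e, and Robo3 with Robo4 were smaller than it.

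Other genes of the Slit-Robo pathway were read in the same way from a list of 17 genes, which holds the 7 Slits and Robos with coreceptors and intracellular partners. Of the 17, 3 were lost and 2 gained in 15376T, and 3 were lost and 4 gained in 14837T. Over all autosomal genes, the losses were 30.1% and 28.8% and the gains 9.09% and 21.4%, respectively. The median log2 was -0.029 and 0.0052. Usp33, a deubiquitinase that binds Robo1, was gained in both lines with a log2 of 0.65 and 0.69, and it was the highest gene of the list in either. Arhgap39, the mammalian counterpart of a Robo adaptor of the fly, was gained in both, with 0.49 and 0.31. Dag1, the gene of dystroglycan, which binds Slits, was lost in 15376T with -0.46 and at 2 copies in 14837T with 0.10. Srgap1, a GTPase-activating protein that acts below Robo1, was at 2 copies in 15376T with -0.035 and lost in 14837T with -0.38. Sos1, which couples Robo to Rac, was at 0.0056 in 15376T and gained with 0.28 in 14837T.

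Among 20 semaphorins, 7 were lost and 1 gained in 15376T, and 5 were lost and 5 gained in 14837T, beside 30.1% and 28.8% of all genes lost and 9.09% and 21.4% gained. Of them, 4 were lost in both lines and 8 had different calls, beside 22.4% and 29.3% of all genes. Their median log2 was -0.019 and -0.030. Sema3b and Sema3f, secreted semaphorins in the same segment of chromosome 9, were lost in 15376T with -0.46 and at 2 copies in 14837T with 0.10. Sema7a, which is anchored to the membrane by a lipid and signals through integrins, was lost in 15376T with -0.53 and at 2 copies in 14837T with -0.029. The transmembrane Sema4d went the other way, with -0.036 in 15376T and a loss at -0.47 in 14837T. Sema4a was at 0.097 in 15376T and gained at 0.62 in 14837T, and Sema6c was gained in both, at 0.59 and 0.62. Sema4g lay in the segment of Slit1 and had its values. Sema5b was lost with Robo1 and Robo2, and Sema6a was lost on chromosome 18 at -0.54 and -0.53.

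Among 11 plexins and neuropilins, 2 were lost and 0 gained in 15376T, and 1 was lost and 1 gained in 14837T, beside the same 30.1% and 28.8% of all genes lost and 9.09% and 21.4% gained. Of the 11, 9 were autosomal like the genes of that background. The 2 lost genes of 15376T were Plxnb1, the receptor of Sema4d, with -0.46 against 0.10 in 14837T, and Plxna3 on chromosome X, with -0.56 against -0.067. Plxnb1 lay in the same segment of chromosome 9 as Dag1, Sema3b and Sema3f, so their losses in 15376T were 1 measurement. Plxnb3, also on chromosome X, was at 2 copies in 15376T with 0.060. Its segment ended at position 73966026, and that of Plxna3 began at 74014001, so log2 stepped down within chromosome X. The sex of the mice behind the lines was not examined. Both neuropilins were at 2 copies, with Nrp1 at 0.0030 and -0.082 and Nrp2 at 0.045 and -0.035. Of 12 intracellular semaphorin effectors, 6 were lost in 15376T, 6 in 14837T and 6 in both, beside 30.1%, 28.8% and 22.4% of all genes, and their median log2 was -0.32 and -0.25. The 6 lost genes lay on chromosomes 7, 14 and 18. In 15376T those of chromosome 7 shared a segment, and so did those of chromosome 14. The 6 losses were therefore not separate measurements. Dpysl3, a collapsin response mediator, was lost at -0.54 and -0.53. By the authors' calls, no gene of any list was lost in one line and gained in the other. The share of all genes with such opposite calls was not computed, so this count has no background. The Eph receptor Epha7 came nearest, lost in 15376T at -0.59 and at 0.19 in 14837T, just under the gain level of 0.2. With log2 recentred on the autosomal median, Epha7 passed that level in 14837T. Many listed genes shared segments, since 95 genes of 6 lists lay in 52 segments in each line.

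**Figure D5:**
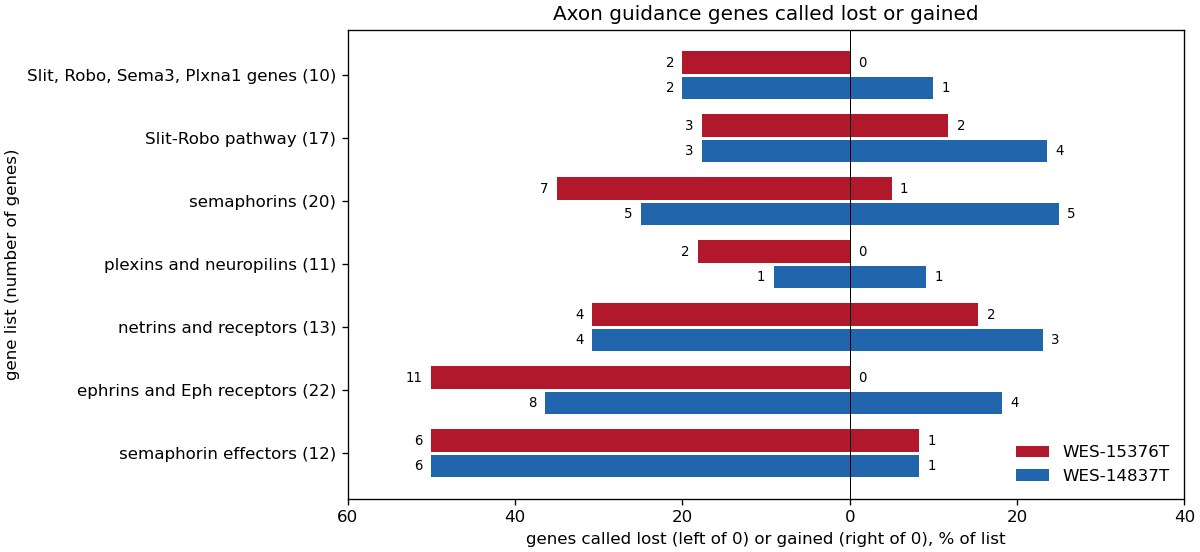
Share of each gene list called lost (left of 0) or gained (right of 0) in WES-15376T and WES-14837T, in % of the list, with the number of genes beside each bar. The 10 Slit, Robo, Sema3 and Plxna1 genes had 2 losses in each line, and the ephrin list had 11 of 22 genes lost in WES-15376T. Over all autosomal genes, which are not drawn, 30.1% were lost in WES-15376T and 28.8% in WES-14837T. Genes of a list can share a segment.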

How the data were processed

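WES tables of the PDAC lines WES-15376T and WES-14837T, 1 library each, were used. Not every engineered allele of the lines is reported here. The log2 ratios deposited by the authors are of coverage against a copy-number reference not named in the sources used here, nor are the aligner and the copy-number program. BAF was deposited per segment, as a fraction. Mean read depth was deposited per segment and per gene, as a coverage signal that was not normalized. A weight, deposited as a score, was not used. Copy numbers were those called by the authors, and they followed log2 thresholds of -0.25 and 0.2 with 0 exceptions. The gene tables listed genes from an absolute log2 of 0.40. The build is mm10 per the submitters' processing notes. Different capture probes for human exons are named (NimbleGen in the methods, Agilent in the labels), and which were used is not known. Capture of mouse DNA by either could lower the depth of poorly matched exons, which was not tested.

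Each gene took the segment that lists it. Of 22035 names, 1088 in more than 1 segment or not on the 19 autosomes were left out of the shares over all genes. Own depth was set as log2 over the bin-weighted depth of autosomal segments at 2 copies. Gene positions and sequences came from RefSeq on GRCm38.p6, in which 8 of the 10 genes had an upstream window. Of 1666 overlapping windows on opposite strands, 0 mismatched. Python 3.11.15, numpy 2.4.6, pandas 2.3.3 and matplotlib 3.10.9 were used, and the steps were tested on simulated data. With 1 library per line there was no test and no p-value. The alternatives tried were other call levels (absolute log2 of 0.3 and 0.5), log2 recentred on the autosomal median, segments found by position, the log2 of the gene table, segment depth in place of log2, other depth references, and the distance of BAF from 0.5.

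The 10 genes and the 6 lists were chosen with earlier results of these data known. Besides the 10 genes, listed genes with different calls and a log2 difference over 0.4, the 3 highest and 3 lowest listed genes of each line, ties included, and genes at a border within 5 Mb of one of the 10 were named. Arhgap39, Srgap1, Sos1, Sema3c, Sema3d, Plxnb3, Nrp1, Nrp2, Dcc and Htt fall outside that rule and were picked once their values had been seen.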

Additional observations from a re-analysis of the deposited data

How the results depend on the processing

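No paired analysis was possible because there was a single WES library of either line and no test. At an absolute log2 of 0.5, 0 of the 10 genes were lost in 14837T in place of 2, 0 were gained there in place of 1, and 2 had different calls in place of 1, since Robo1 and Robo2 at -0.49 and Slit1 at 0.48 fell short of that level. Over all 95 listed genes, 2 were lost in 14837T at this level in place of 27, and 7 were gained in place of 18. In 15376T 29 of them were lost in place of 33 and 4 gained in place of 6. The shares of all genes at an absolute log2 of 0.5 were not computed, so these drops cannot be set beside the genome. Calls at 0.3 and recentred log2 left the counts over the 10 genes as they were and moved none of those over the 95 genes by more than 2. Segments found by position were tried for the losses and gains of the 10 genes, and left these counts as they were. Relative to its segment the own depth of Slit1 in 14837T was -0.36, against 0.22 relative to 2-copy segments. Segment depth in place of log2 moved 9 of 20 values by more than the spread, and recentring moved none of the 20. Among the values that moved were Plxna1 in 15376T, to -0.20, and Robo3 and Robo4 in 14837T, to 0.13. The log2 of the gene table equalled that of the segment in all 5 values. BAF as a distance from 0.5 was 0.28 for Plxna1 and 0.50 for Slit3 in 15376T. The smallest segments held 12 and 13 bins, so a deletion of a few exons of any of these genes was not detectable.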

Other observations

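Of 22 ephrins and Eph receptors, which are contact-dependent guidance cues, 11 were lost and 0 gained in 15376T, beside 30.1% and 9.09% of all autosomal genes. In 14837T 8 were lost and 4 gained, beside 28.8% and 21.4% of all genes, and 7 were lost in both lines, beside 22.4%. Of the 22, 21 were autosomal. Several of the 11 losses in 15376T, Epha7 among them, came from a single segment of chromosome 4. It ran from position 3173523 to 146117266 at a log2 of -0.59. In 14837T other Eph receptors of chromosome 4 also shared a lost segment, at -0.39. The losses in this list were therefore not separate measurements. The median log2 was -0.28 in 15376T and -0.065 in 14837T. Epha7 had the widest difference of all listed genes, with a loss at -0.59 in 15376T and 0.19 in 14837T. Ephb1 was at -0.62 and -0.058, and the ligands Efnb2 and Efnb1 were lost in 15376T at -0.60 and -0.56, beside -0.072 and -0.088 in 14837T. Efnb1 lies on chromosome X, in the same segment of 15376T as Plxna3, and the sex of the source mice was not examined. Efna1, Efna3 and Efna4, which lie in the same segment of chromosome 3, were at 0.097 in 15376T and gained at 0.62 in 14837T. Epha3 and Epha6 were lost with Robo1 and Robo2 on chromosome 16.

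Among 13 netrins and netrin receptors, 4 were lost and 2 gained in 15376T, and 4 were lost and 3 gained in 14837T, beside 30.1% and 28.8% of all genes lost and 9.09% and 21.4% gained. Dcc, the main attractive netrin receptor, was lost in both lines at -0.56 and -0.44, and Dscam was lost with Robo1 and Robo2. Unc5c, a repulsive netrin receptor, was gained in both at 0.65 and 0.50. Neo1 was lost in 15376T at -0.53 and at -0.029 in 14837T, whereas Unc5a was at -0.036 and lost in 14837T at -0.47.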
